A study of Homo sapiens with 18 samples.

Results

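The 10 genes described here surround the epidermal growth factor receptor and were followed through ribosome profiling and mRNA sequencing of the human lung adenocarcinoma cell line NCI-H1975. They are the receptors ERBB2 and ERBB3, the ligand genes AREG, EREG, HBEGF and TGFA, and the feedback genes ERRFI1, DUSP6, SPRY2 and SPRY4. They were taken by name as partner receptors, ligands and feedback regulators of the receptor, which was itself left out, and all 10 were found among the 61487 counted genes. The 18 libraries form 6 groups of 3. Cells of 3 conditions (labelled Scramble, sgControl and sgDAMP) were each measured as poly(A)-selected mRNA and as ribosome footprints, the RNA stretches that ribosomes protect from nuclease. Cells for footprints were harvested after cycloheximide at 100 µg/ml, which stalls translating ribosomes. Scramble and sgControl are control cells, and sgDAMP cells carry a knockout of the peptide that the study calls DAMP. Their deposited tables carry the name sgTIAMP instead, and the labels were followed. The labels do not say whether sgControl and sgDAMP are clones or pools, or whether replicates are separate cultures, so p-values measure only the spread between these libraries.

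ERBB receptors are tyrosine kinases that work in pairs. A ligand is made as a membrane-bound precursor, cut loose by a protease and bound by a receptor, and the active pair sends a signal through RAS to the kinase ERK. ERK output includes genes that shut the signal down again and genes of the ligands themselves, so ligands, receptors and feedback genes form one loop. In lung adenocarcinoma this receptor family is a frequent driver of growth.

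Gene counts per library ran from 10859527 to 17464782 in mRNA and from 1035159 to 7840852 in footprints. Protein-coding genes held 91.66% to 96.79% of the gene counts in mRNA, 76.45% to 79.45% in sgControl and sgDAMP footprints, and 6.38% to 20.21% in Scramble footprints. The last group therefore rests on 83167 to 239285 coding counts per library, and a library with 0 counts of a gene there still allows 12.54 to 36.07 coding CPM (3 counts). Coding CPM is the count scaled to CPM over the counts of protein-coding genes alone. The 3 footprint libraries of sgControl, and likewise those of sgDAMP, agree within sampling noise (mean chi-square per degree of freedom 0.909 and 0.91), so each of these groups was summed and counted as 1 sample. Footprints of DSP-AS1, taken here as the lncRNA gene behind the peptide although the labels do not name it, summed to 567 counts in sgControl and 2 in sgDAMP. Its mRNA counts summed to 936 and 979, so the mRNA libraries show no loss of the transcript. Of 9 epithelial markers, KRT7, KRT8, KRT18 and CDH1 stood above 1 coding CPM in mRNA of all 3 conditions, while EPCAM, KRT19, NKX2-1, NAPSA and SFTPB stood below it. Of 5 leukocyte markers, PTPRC and CD3E were at 0 in every group, while CD14 averaged 80.5 coding CPM in Scramble footprints, 0.816 in Scramble mRNA, 4.69 in sgControl mRNA and 4.11 in sgDAMP mRNA. Of 6 fibroblast markers, 5 averaged at least 1 coding CPM in Scramble footprints and 1 in each other group. The summed level of the list in Scramble footprints was 37.6 to 84.2 for fibroblasts and 54.3 to 108 for leukocytes, in libraries where 1 count is worth several coding CPM, and the part of these markers in the results was not tested. Spearman's rho between footprints and mRNA across 11158 coding genes was 0.67 in Scramble, 0.37 in sgControl and 0.42 in sgDAMP, a description across genes within pooled groups.

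AREG and EREG, the pair of ligand genes whose footprints stood far above their mRNA in sgControl and sgDAMP, are neighbours on chromosome 4. EREG spans 74365145 to 74388749 and AREG spans 74445136 to 74455005 of GRCh38, with 56.4 kb between them. The 250 bases before the start of each gene (RefSeq, GRCh38.p14) are printed with those of TGFA, the ligand gene whose footprints stood lowest against its mRNA. Capitals mark matches, on either strand, to the cyclic-AMP response element TGACGTCA, the TATA box TATAAA and the GC box GGGCGG.
AREG, chr4:74444886-74445135, + strand: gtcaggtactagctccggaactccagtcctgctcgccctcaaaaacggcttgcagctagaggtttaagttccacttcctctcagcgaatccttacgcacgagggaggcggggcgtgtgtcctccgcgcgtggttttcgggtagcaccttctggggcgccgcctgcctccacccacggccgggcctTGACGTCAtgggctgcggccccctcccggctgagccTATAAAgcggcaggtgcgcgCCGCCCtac
EREG, chr4:74364895-74365144, + strand: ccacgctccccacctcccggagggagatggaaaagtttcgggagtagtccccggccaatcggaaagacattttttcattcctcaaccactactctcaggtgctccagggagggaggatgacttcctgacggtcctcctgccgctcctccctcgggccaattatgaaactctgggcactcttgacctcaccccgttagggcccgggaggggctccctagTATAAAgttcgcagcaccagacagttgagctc
TGFA, chr2:70553827-70554076, - strand: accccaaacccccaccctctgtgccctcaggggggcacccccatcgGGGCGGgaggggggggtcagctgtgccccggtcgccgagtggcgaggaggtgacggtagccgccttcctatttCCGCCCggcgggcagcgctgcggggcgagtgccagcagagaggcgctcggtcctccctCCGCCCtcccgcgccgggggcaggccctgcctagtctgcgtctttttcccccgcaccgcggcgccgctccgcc
The AREG window held the response element starting at base -65 and the TATA box at -29, counted from the gene's start, and 1 GC box. The EREG window held the TATA box at -32. The TGFA window held neither and had 3 GC boxes. The response element is found in 2.36% of 15313 coding promoters of the same length, the TATA box in 9.22% and the GC box in 56.7%. Windows were at hand for 9 of the 10 genes, all but ERBB3. The TATA box was in 2 of these 9, the GC box in 6 and the response element in 1. ERBB2 alone held a match to the AP-1 motif TGANTCA (5.03% of promoters) and matches to the ETS motif CCGGAAG (12%). These matches are descriptions of letters and not of bound factors.

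**Figure D1:**
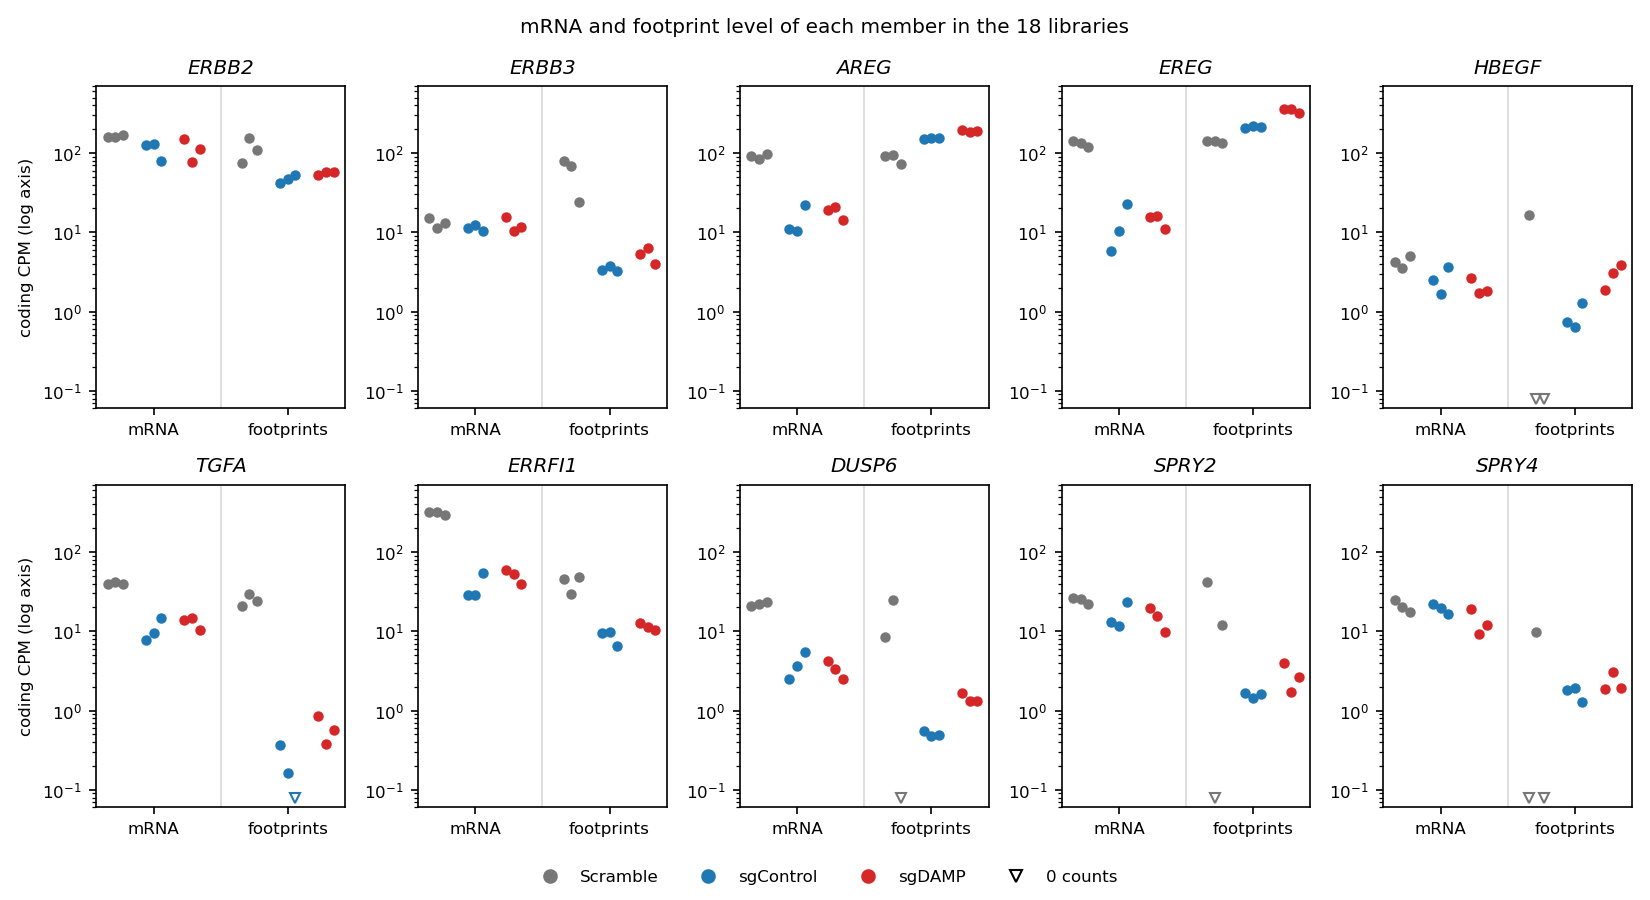
Level of each gene in each of the 18 libraries, in coding CPM on a log axis, with mRNA on the left and footprints on the right of each panel. Points are libraries, colours are conditions, and open triangles mark libraries with 0 counts. AREG and EREG are the 2 genes whose sgControl and sgDAMP footprints stand above all their mRNA values in those conditions.

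In bulk libraries, fewer cells expressing a gene and less RNA per cell cannot be told apart. ERBB2, the receptor with no known ligand of its own and the preferred partner of the others, read 159.7, 158.9 and 169 coding CPM in the Scramble mRNA libraries. In sgControl mRNA it read 128, 129 and 79.8, and in sgDAMP mRNA 152, 75.9 and 114. The sgControl and sgDAMP libraries overlap, and all of them lie below the Scramble libraries in coding CPM, whereas TMM scaling places Scramble lower. ERBB2 footprints read 75.2, 153 and 108 coding CPM in Scramble, 41.4, 47.4 and 52.6 in sgControl and 53.5, 57.2 and 58.0 in sgDAMP. The span of ERBB2 overlaps MIEN1 and MIR4728, so shared reads cannot be told apart.

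ERBB3, which has an impaired kinase and signals through its partners, differed in footprints far more than in mRNA. Its mRNA read 15.2, 11.5 and 13.2 coding CPM in Scramble, 11.4, 12.3 and 10.2 in sgControl and 15.5, 10.5 and 11.6 in sgDAMP. All 9 mRNA libraries thus overlap across the conditions. Its footprints read 79.4, 69.1 and 24.0 in Scramble, from only 19, 14 and 2 counts. They read 3.31, 3.71 and 3.25 in sgControl and 5.27, 6.28 and 4.01 in sgDAMP, with every Scramble library above them.

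The ligand genes AREG and EREG shared one order of conditions within each assay, by group mean of coding CPM. AREG, the gene of amphiregulin, read 91.0, 83.3 and 97.8 coding CPM in Scramble mRNA. It read 11.1, 10.3 and 22.2 in sgControl mRNA and 18.9, 21.0 and 14.2 in sgDAMP mRNA, where the groups overlap. Its footprints read 91.9, 93.8 and 72.1 in Scramble, 152, 154 and 155 in sgControl and 195, 182 and 189 in sgDAMP. In Scramble cells the footprint level was thus close to the mRNA level, and in the other conditions it lay above every mRNA library.

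EREG, the gene of epiregulin, read 140.3, 134 and 118 coding CPM in Scramble mRNA. It read 5.83, 10.4 and 22.5 in sgControl mRNA, the widest spread of the 10 genes in that group, and 15.6, 15.8 and 11.02 in sgDAMP mRNA. Its footprints read 142, 143 and 132 in Scramble, 209, 219.9 and 211 in sgControl and 361, 355 and 319 in sgDAMP. The lowest sgDAMP footprint library lies above the highest of sgControl in coding CPM. That scale places sgDAMP footprints 0.28 log2 units higher than TMM does, and the libraries of either group count as 1 sample. AREG footprints separate in the same way, at a TMM-scaled ratio of 1.02 between the sums. The span of EREG overlaps a lncRNA, LOC105377276.

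HBEGF, whose product also serves as a receptor for diphtheria toxin, and TGFA, the gene of transforming growth factor alpha, were the ligand genes with few footprints. HBEGF mRNA read 4.22, 3.51 and 5.02 coding CPM in Scramble, 2.499, 1.65 and 3.62 in sgControl and 2.63, 1.69 and 1.82 in sgDAMP. Its footprints were 4, 0 and 0 counts in Scramble, 4, 4 and 8 counts in sgControl and 9, 16 and 20 counts in sgDAMP. Each sgDAMP library held more HBEGF footprints than any sgControl library.

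TGFA mRNA read 39.8, 41.3 and 39.3 coding CPM in Scramble, 7.68, 9.49 and 14.9 in sgControl and 13.8, 14.8 and 10.2 in sgDAMP. Its footprints were 5, 6 and 2 counts in Scramble, out of far fewer coding counts, against 2, 1 and 0 counts in sgControl and 4, 2 and 3 counts in sgDAMP. In coding CPM these are 20.9, 29.6 and 24.0 in Scramble against at most 0.843 in any sgControl or sgDAMP library. The span of TGFA overlaps TGFA-IT1 and 2 other lncRNAs.

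Among the feedback genes, ERRFI1 encodes a cytoplasmic protein that binds active ERBB kinases and blocks them. Its mRNA read 319, 323 and 289 coding CPM in Scramble, 28.5, 28.8 and 54.0 in sgControl and 59.4, 52.1 and 39.6 in sgDAMP. All Scramble libraries lie far above the others, which overlap. Its footprints read 46.0, 29.6 and 48.1 in Scramble, 9.38, 9.67 and 6.499 in sgControl and 12.6, 11.4 and 10.5 in sgDAMP.

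DUSP6, a phosphatase that switches off ERK, read 20.7, 21.9 and 23.1 coding CPM in Scramble mRNA. It read 2.499, 3.61 and 5.55 in sgControl mRNA and 4.28, 3.39 and 2.48 in sgDAMP mRNA, which overlap. Its footprints were 2, 5 and 0 counts in Scramble, 3, 3 and 3 counts in sgControl and 8, 7 and 7 counts in sgDAMP. Its span overlaps the readthrough gene POC1B-DUSP6.

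SPRY2 and SPRY4, Sprouty proteins that damp the path from receptor to ERK, differed less between conditions in mRNA. SPRY2 read 26.0, 25.9 and 21.8 coding CPM in Scramble, 13.2, 11.8 and 23.1 in sgControl and 19.7, 15.6 and 9.93 in sgDAMP. SPRY4 read 25.02, 20.2 and 17.3 in Scramble, 22.02, 19.5 and 16.6 in sgControl and 19.3, 9.19 and 11.9 in sgDAMP. For both genes Scramble overlaps sgControl and sgControl overlaps sgDAMP. SPRY2 footprints were 10, 0 and 1 counts in Scramble, 9, 9 and 10 in sgControl and 19, 9 and 14 in sgDAMP. SPRY4 footprints were 0, 2 and 0 counts in Scramble, 10, 12 and 8 in sgControl and 9, 16 and 10 in sgDAMP. SPRY4 overlaps the lncRNA gene SPRY4-IT1.

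Whether the peptide knockout was accompanied by altered amounts of these transcripts was asked first. In mRNA, none of the 10 genes differed between sgDAMP and sgControl at an adjusted p under 0.05 (edgeR quasi-likelihood test, TMM scaling, 3 against 3 libraries). Among all 14032 genes tested 0% were called higher and 0% lower, while 741 had an unadjusted p under 0.05, among them SPRY4 of the 10. DESeq2's Wald test likewise called none of the 10 and 21 of all genes. SPRY4 had a log2 change of -0.70 (SE 0.32, adjusted p = 0.862), HBEGF -0.48 (SE 0.41), DUSP6 -0.34 (SE 0.38) and ERRFI1 0.30 (SE 0.29). The other 6 lay between -0.24 and 0.18 with SEs of 0.30 to 0.39. The signs of ERBB2, ERBB3 and EREG, which are near 0, turn with the scaling. The median of the 10 was -0.084, against 0.033 over all genes tested.

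**Figure D2:**
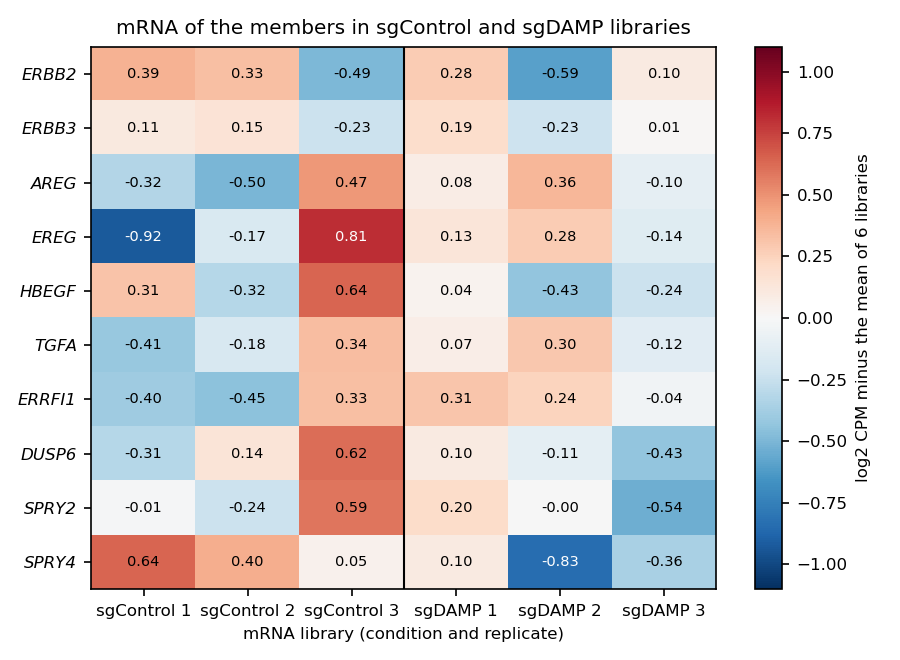
mRNA of the 10 genes in the 3 sgControl and 3 sgDAMP libraries, as log2 CPM (TMM scale) minus the gene's mean over the 6 libraries; red is above and blue below that mean, and each cell carries its value. sgControl replicate 3 is high for the ligand genes, ERRFI1, DUSP6 and SPRY2 and low for ERBB2 and ERBB3.

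The libraries of one condition differed from each other across all genes, and not in this set alone. Beyond sampling noise (chi-square, adjusted p under 0.05) were 10313 of 13738 genes in sgControl mRNA and 11282 of 14128 in sgDAMP mRNA. In sgControl replicate 3, AREG, EREG, HBEGF, TGFA, ERRFI1, DUSP6 and SPRY2 were at their highest of the 3 sgControl libraries, and ERBB2, ERBB3 and SPRY4 at their lowest. EREG spread over 1.74 log2 units in sgControl, more than 92.2% of genes tested, and over 0.41 in sgDAMP, more than 17.1%. The median gene spread over 0.70 and 0.77 log2 units in these groups. Of the 10 genes 8 spread more widely than the median gene in sgControl, all but ERBB3 and SPRY4, and 8 less widely in sgDAMP, all but ERBB2 and SPRY4.

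By root-mean-square (RMS) difference of the centred log2 values over these 6 libraries, the closest pairs within the set were AREG and ERRFI1 (0.127), AREG and TGFA (0.151) and ERRFI1 and TGFA (0.152). Of 14031 other genes, ERRFI1 ranked 46 by closeness to AREG, and AREG ranked 41 by closeness to ERRFI1. AREG and EREG were further apart (0.316). DUSP6 and SPRY2 differed by 0.21. The nearest coding genes outside the set, among 7199 or 7200 that averaged at least 3 in log2 CPM, were DDX11 and XYLT2 for ERBB2 (0.037 and 0.038) and PARS2 and BRD9 for ERBB3 (0.042 and 0.049). They were C1orf109 and DDX55 for AREG (0.075 each), ZMYND11 and GULP1 for EREG (0.126 and 0.133), MRPS30 and PIP4K2A for TGFA (0.036 and 0.046) and MAPRE2 and RASSF2 for HBEGF (0.137 and 0.171). GATAD1 and DDX17 were nearest to ERRFI1 (0.06 and 0.066), AKIRIN1 and SLC6A15 to DUSP6 (0.086 and 0.112), NEFL and NBAS to SPRY2 (0.098 and 0.123), and TNFAIP8L1 and DGKD to SPRY4 (0.075 each). EREG and HBEGF thus had the most distant nearest genes of the set. EREG also had the widest RMS spread of its own (0.525), and HBEGF rested on 27 to 60 counts per library. Distances like these do not by themselves mark a distinct pattern.

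In footprints, HBEGF and DUSP6 were past 1.5-fold in sgDAMP relative to sgControl, both higher, out of the 9 genes that passed the count filter. Of 16131 genes tested 19% were past 1.5-fold higher and 15.7% lower, so 2 of 9 is near the background. Summed footprints of HBEGF were 16 counts in sgControl and 45 in sgDAMP, a TMM-scaled ratio of 2.71 (95% exact Clopper-Pearson interval 1.5 to 5.14). Those of DUSP6 were 9 and 22 counts, a ratio of 2.36 (1.04 to 5.82). Those of EREG were 3800 and 5255 counts, a ratio of 1.33 (1.28 to 1.39). These intervals cover counting error only, each group is 1 sample, and no p is given. With 9 counts in sgControl, under the minimum of 10, DUSP6 passed the filter only through sgDAMP, so its place here draws on that filter. With at least 10 counts in both sums, 1 of 8 genes tested was past 1.5-fold, where 3882 of 14306 genes were.

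The other 7 genes that passed the filter lay below 1.5-fold. AREG had 2732 and 2875 footprints (ratio 1.02, interval 0.963 to 1.07) and ERBB2 843 and 859 (0.983, interval 0.893 to 1.08). The ratio was 1.25 for ERBB3 (0.883 to 1.77), 1.12 for ERRFI1 (0.894 to 1.4), 1.45 for SPRY2 (0.876 to 2.42) and 1.13 for SPRY4 (0.671 to 1.9). TGFA, with 3 and 9 counts, did not pass the filter. Its ratio was past 1.5-fold too, at 2.89, with an interval of 0.722 to 16.6. Of the 9 genes tested, DUSP6 included, 8 had a ratio above 1, where 8155 of all 16131 genes had. The median log2 ratio of the 9 was 0.321 against 0.008 over all genes. Coding CPM places sgDAMP footprints 0.28 log2 units higher than TMM does, so that EREG reads 1.62 times higher on that scale. With total-count scaling EREG and SPRY2 also passed 1.5-fold, 4 genes in all.

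**Figure D3:**
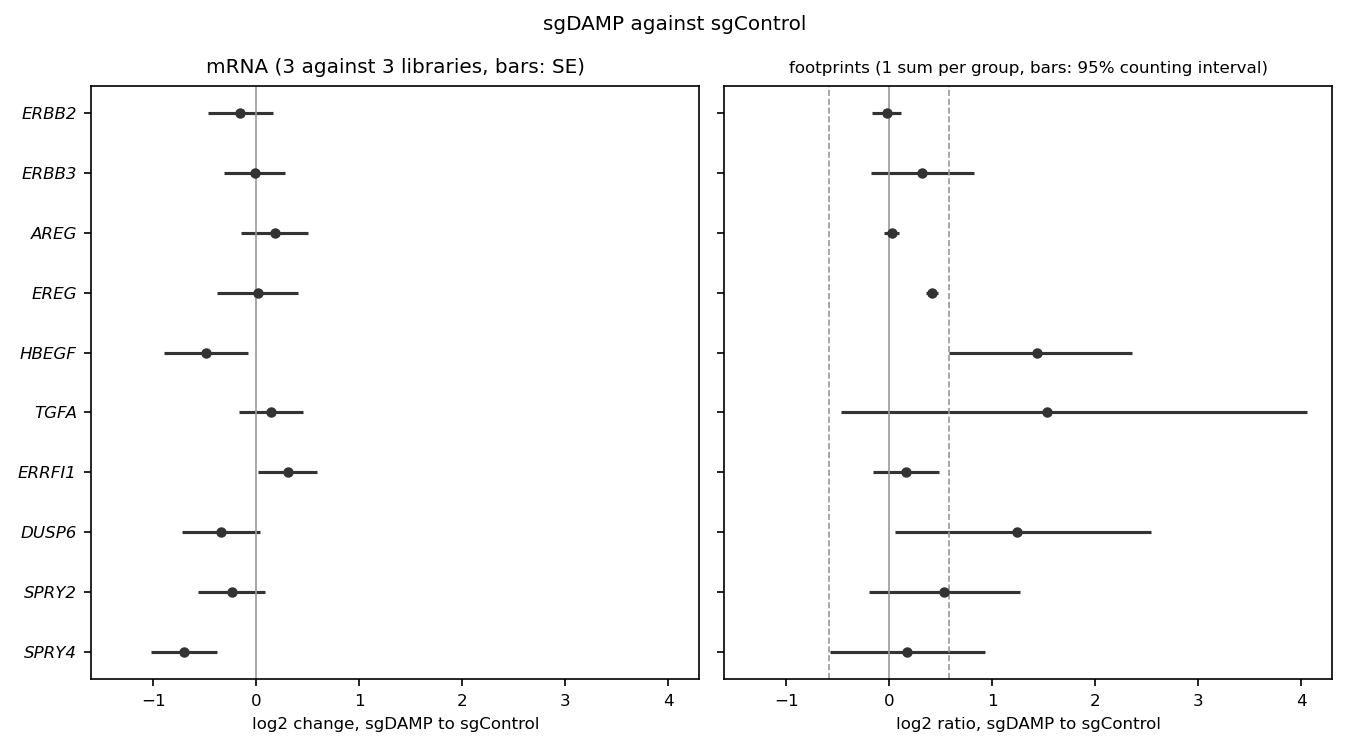
sgDAMP against sgControl for the 10 genes on the log2 scale. Left, mRNA change with SE (3 against 3 libraries). Right, ratio of summed footprints with the 95% counting interval, dashed lines at 1.5-fold. HBEGF, DUSP6 and TGFA have footprint ratios above 2, and the TGFA interval spans 0.

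Footprints relative to mRNA, used in this field as a measure of translation per transcript, were compared between sgDAMP and sgControl in one model over both assays. The labels do not say whether the mRNA and footprint libraries of a condition came from the same cultures, and the 2 assays ranked genes less alike in these conditions than in Scramble, so the values compare the deposited libraries of both assays. None of the 10 genes passed an adjusted p under 0.05, where 0.031% of 19357 genes were called higher and 0.227% lower, and 1059 genes had an unadjusted p under 0.05. DESeq2's Wald test also called none of the 10. HBEGF had a log2 difference of 1.93 (SE 0.87, adjusted p = 0.888), DUSP6 1.58 (SE 0.89), TGFA 1.36 (SE 0.99) and SPRY4 0.89 (SE 0.75). EREG had 0.41 (SE 0.73) and AREG -0.14 (SE 0.64). The fit assumes that the lone footprint sample of each condition varies like the mRNA libraries. Of the 10 values 8 were positive, where 9705 of all 19357 genes were. The median was 0.598 against 0.002 over all genes tested. The largest values, of HBEGF, DUSP6, TGFA, SPRY4 and SPRY2, rest on summed footprints of 3 to 45 counts per condition.

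The pathway around the 10 genes was read from 5 lists. In mRNA no listed gene was called between sgDAMP and sgControl, out of 57 tested, and none in footprints relative to mRNA. In footprints, EGF was past 1.5-fold lower (1 of 2 ERBB ligand and receptor genes tested, ratio 0.551), with an interval that covers 1 (0.2 to 1.41). Whether its place draws on the count filter was not tested. Of 14 adaptor and ubiquitin ligase genes, EPS15, an endocytic adaptor, was past 1.5-fold higher (1.93, 1.48 to 2.54) and LRIG1, a negative regulator of ERBB receptors, lower (0.386, 0.165 to 0.832). SOS1 and SOS2, which load RAS with GTP, were lower too (0.557, interval 0.398 to 0.772, and 0.545, interval 0.358 to 0.819), and the list had 2 genes higher and 3 lower. Of 15 RAS to ERK genes, HRAS was higher (2.43, 1.83 to 3.25) and the kinase gene MAP2K1 lower (0.568, 0.532 to 0.607), with 2 higher and 1 lower in all. Of 16 other ERK output genes, the feedback gene SPRED2 (2.52, 1.61 to 4.04) and IER3 (1.69, 1.45 to 1.97) were higher and CCND1, the gene of cyclin D1, lower (0.552, 0.537 to 0.568). None of 7 ligand shedding genes, the proteases ADAM10 and ADAM17 among them, passed 1.5-fold. Of all 16131 genes tested 19% were past 1.5-fold higher and 15.7% lower, so these list counts by themselves say little.

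How far footprints stood above or below mRNA was then measured in each condition, with TMM scaling over both assays. For sgControl and sgDAMP, 3 mRNA libraries were set against 1 summed footprint sample, assumed to vary like the mRNA libraries. The SEs and p-values of these fits thus hold no measured spread of footprints. In sgControl, AREG and EREG were higher in footprints and 6 genes were lower. Of 17933 genes 40.3% were called higher and 32.1% lower. AREG had a log2 difference of 3.76 (SE 0.43, adjusted p = 9.38e-07), above 88.1% of 12967 coding genes, and EREG 4.42 (SE 0.49, adjusted p = 6.83e-07), above 91.9%. TGFA, at -5.58 (SE 0.82, adjusted p = 1.43e-05), lay below 91.9% of them. The 4 feedback genes were all lower, at -1.77 (SE 0.53) for ERRFI1, -2.57 (SE 0.74) for DUSP6, -2.99 (SE 0.62) for SPRY2 and -3.20 (SE 0.60) for SPRY4. ERBB3 was lower by the same test (-1.39, SE 0.53, adjusted p = 0.0271), but not without sgControl mRNA replicate 2 (adjusted p = 0.153). Fits below that take the footprint libraries as 3 replicates understate the spread, since these libraries agree within sampling noise. ERBB2 (-0.93, SE 0.48) and HBEGF (-1.17, SE 0.70) did not pass. Both were lower with upper-quartile scaling (adjusted p = 0.0167 and 0.049), with the footprint libraries as 3 replicates (0.00141 and 0.00932) and with a replicate block added to that (0.000454 and 0.009). ERBB2 was also lower with total-count scaling (0.0141) and without sgControl mRNA replicate 3 (0.00382).

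In sgDAMP the same test called AREG and EREG higher and 4 genes lower, where 38% of 18238 genes were called higher and 31.7% lower. AREG had 3.50 (SE 0.49) and EREG 4.72 (SE 0.50), above 95.9% of 13052 coding genes. This fit too rests on 1 summed footprint sample, so its SEs hold no measured spread of footprints. TGFA (-4.32, SE 0.76), ERRFI1 (-2.01, SE 0.61), SPRY2 (-2.32, SE 0.63) and SPRY4 (-2.43, SE 0.64) were lower. ERBB3 (-1.16, SE 0.58), DUSP6 (-1.101, SE 0.70), ERBB2 (-0.90, SE 0.57) and HBEGF (0.65, SE 0.65) did not pass. ERBB2 and ERBB3 were lower with total-count scaling (adjusted p = 0.0412 and 0.0207) and without sgDAMP mRNA replicate 2 (0.00963 and 0.0126), and ERBB3 also without sgDAMP footprints replicate 2 (0.0316). ERBB2, ERBB3 and DUSP6 were lower with upper-quartile scaling (0.0387, 0.0134 and 0.0487), with the footprint libraries as 3 replicates (0.00211, 0.000822 and 0.0039) and with a replicate block added to that (0.000219, 3.45e-05 and 0.00835). The sgDAMP footprint libraries agree within sampling noise too, so p-values that take them as 3 replicates understate the spread. The shares of all genes called were high in both conditions, so a call by itself says little about a gene.

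In Scramble cells 2 of the 10 genes passed, where 17.1% of 14432 genes were called higher and 27.4% lower. ERBB3 was higher in footprints, with a log2 difference of 2.55 (SE 0.38, adjusted p = 4.74e-06). ERRFI1 was lower (-2.71, SE 0.29, adjusted p = 1.75e-08). AREG (0.22, SE 0.26) and EREG (0.35, SE 0.22) did not pass. SPRY4 missed the threshold (-2.20, SE 0.91, adjusted p = 0.0513), and its 2 footprints both came from replicate 2. Without Scramble footprints replicate 2 the count was 4, with ERBB2 (-0.83, SE 0.30) and SPRY4 added as lower, SPRY4 then resting on 0 counts. The scale matters most here: total-count scaling moves the median gene by -2.84 and gives 0 higher and 9 lower in place of 1 and 1, when 13530 of the 14432 genes were called, and ERBB3 turns to -0.29.

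**Figure D4:**
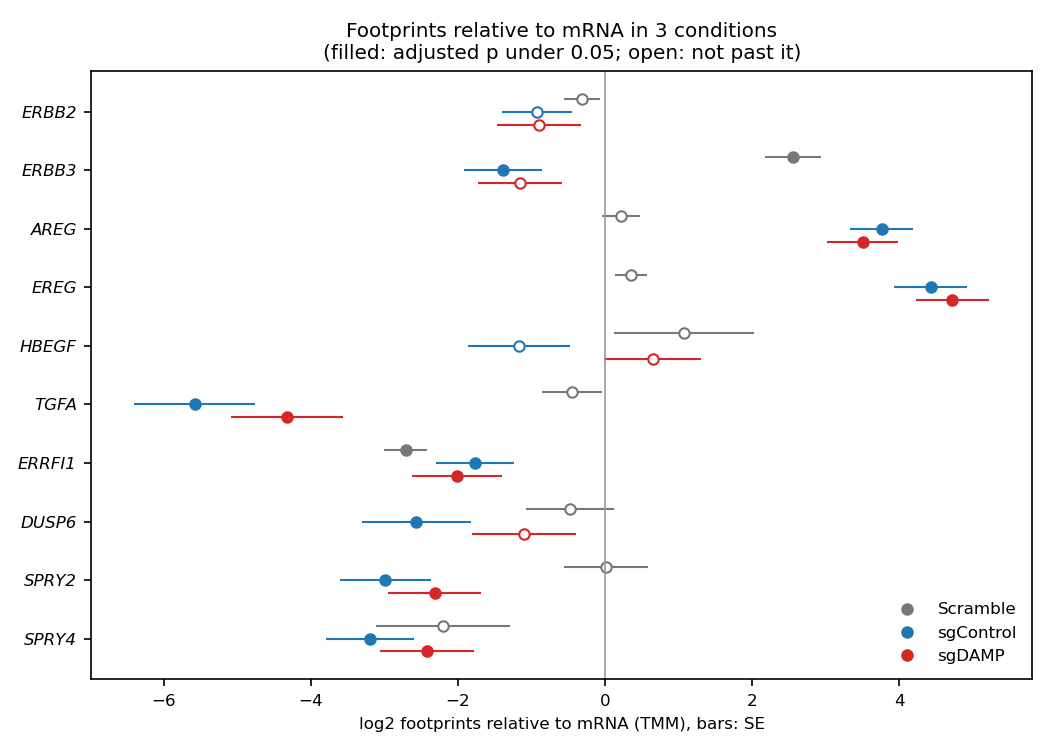
Footprints relative to mRNA on the log2 scale (TMM) for the 10 genes in 3 conditions, with SE bars; filled points passed an adjusted p under 0.05. AREG and EREG lie near 0 in Scramble and between 3.50 and 4.72 in sgControl and sgDAMP, while TGFA lies near -0.45 in Scramble and below -4 in the others.

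In sgControl, listed pathway genes were called on both sides as well. High shares of all genes were called in sgControl and sgDAMP, as given above, so the list counts by themselves say little. All 7 shedding and trafficking genes passed, 4 higher and 3 lower, with TMED2, a cargo receptor, higher (3.32, SE 0.42) and RHBDF1, RHBDF2 and FURIN lower (-4.15, -2.70 and -2.86). Of 15 adaptor genes 6 were higher and 5 lower, with GAB1 at 5.06 (SE 0.55) and SHC1 at -4.86 (SE 0.55). Of 15 RAS to ERK genes 5 were higher and 5 lower, with RASA1 and NF1, which switch RAS off, at 5.90 and 4.95, and HRAS and MAP2K2 at -5.67 and -5.88. Of 18 ERK output genes 4 were higher and 12 lower, among them FOSL1 (-4.88), SPHK1 (-4.65), ETV4 (-4.70) and EPHA2 (-4.26). Their median was -2.57, against -1.58 for the 10 genes and 0.20 over all genes tested. NRG1, the gene of neuregulin, a ligand of ERBB3, was higher (3.07, SE 0.38) and NRG2 lower (-2.48, SE 0.76), 2 of 4 ligand and receptor genes tested. In sgDAMP the counts were 4 higher and 3 lower of 7 shedding genes, 5 and 5 of 15 adaptors, 2 and 5 of 15 RAS to ERK genes and 3 and 12 of 18 ERK output genes. There NRG1 had 3.41 (SE 0.50) and NRG2 -3.51 (SE 0.93).

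In Scramble cells the lists gave 3 higher and 1 lower of 7 shedding genes (ADAM10 1.99, CNIH4 1.81, ADAM17 0.66 and FURIN -1.35) and 0 and 7 of 15 adaptors, with SHC1 at -2.43 and PTPN11 at -2.39. They gave 3 and 6 of 15 RAS to ERK genes, with MAPK3 at 1.78, and 2 and 9 of 17 ERK output genes, with EPHA2 at 1.37 and PHLDA1 at -2.72. Of all 14432 genes 17.1% were called higher and 27.4% lower. PTPN11 had 3.44 in sgControl and EPHA2 -4.26, so both had opposite signs in these conditions, and both differed between sgControl and Scramble in footprints relative to mRNA (6.29, SE 0.51, and -5.18, SE 0.50).

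The 2 control sets were set against each other to order the levels. Scramble and sgControl mRNA may differ in experiment as well as in the kind of control, which cannot be told apart here. Of the 10 genes 5 were higher and 2 lower in Scramble mRNA, against 46.1% and 33.4% of 16360 genes, with a median gene of 0.425. EREG had a log2 change of 2.48 (SE 0.37, adjusted p = 0.00017), ERRFI1 2.19 (SE 0.22, adjusted p = 1.58e-05), AREG 1.77 (SE 0.26, adjusted p = 0.000165), DUSP6 1.62 (SE 0.26) and TGFA 1.03 (SE 0.23). ERBB3 (-0.67, SE 0.22) and SPRY4 (-0.81, SE 0.23) were lower, and ERBB2 (-0.38), HBEGF (-0.17) and SPRY2 (-0.26) did not pass. Total-count scaling moves the median gene by 0.83 and gives 5 higher and 0 lower, with ERBB3 at 0.17 and SPRY4 at 0.04. ERBB2 was lower in Scramble without sgControl mRNA replicate 3 (-0.66, SE 0.10, adjusted p = 0.000107). ERBB3 also did not pass with at least 10 counts in every library (adjusted p = 0.0578), with a replicate block (adjusted p = 0.0553), or without sgControl mRNA replicate 2, Scramble mRNA replicate 2 or Scramble mRNA replicate 3 (adjusted p = 0.0502, 0.103 and 0.0554).

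In the lists, 10 of 15 adaptor genes were higher and 3 lower in Scramble mRNA, with SOS2 at 3.24 and PTPN11 at 3.02. Of all 16360 genes 46.1% were called higher and 33.4% lower. Of 15 RAS to ERK genes 8 were higher and 5 lower, with RASA1 at 4.004 and HRAS at -2.57. Of 18 ERK output genes 5 were higher and 7 lower, FOSL1 (-4.08) and SPHK1 (-3.52) among the lower, the opposite sign to ERRFI1 and DUSP6. ADAM17 (2.55), ADAM10 (2.42) and TMED2 (2.22) were higher among 7 shedding genes, of which 3 were higher and 4 lower. BTC, the gene of betacellulin, was higher (3.05, SE 0.42) and NRG1 lower (-0.90, SE 0.19), 2 of 4 ligand and receptor genes tested.

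Footprints relative to mRNA differed between sgControl and Scramble for 6 of the 10 genes, 3 higher and 3 lower in sgControl, where 24.2% of 20582 genes were called higher and 14.9% lower. This comparison of the control sets was added after the data had been seen, and its median gene stood at 1.79. Of 13448 coding genes 81.7% lay below EREG and 78.3% below AREG. EREG had 4.53 (SE 0.54, adjusted p = 1.34e-06) and AREG 4.0 (SE 0.47, adjusted p = 1.16e-06). TGFA had -4.57 (SE 0.81, adjusted p = 0.000118), ERBB3 -3.46 (SE 0.60, adjusted p = 0.000101) and SPRY2 -2.52 (SE 0.89, adjusted p = 0.0296). ERRFI1 (1.38, SE 0.51, adjusted p = 0.0359) lies below the median gene. With total-count scaling the split was 3 higher and 1 lower, and with upper-quartile scaling 2 and 5. AREG, EREG and TGFA kept their call and sign under both. ERRFI1 did not pass with upper-quartile scaling (0.22) or TMM over both assays (1.13), nor without any of 8 single libraries (adjusted p = 0.0522 to 0.146). SPRY2 did not pass without Scramble mRNA replicate 2 or 3 (adjusted p = 0.0507 and 0.0673), and turned to 0.04 without Scramble footprints replicate 1, which held 10 of its 11 counts. Depth moves with the condition here, since Scramble footprints hold far fewer coding counts, and its part in the result was not tested. Of the lists, 2 of 7 shedding genes were higher and 2 lower, 7 and 3 of 15 adaptors, 6 and 3 of 15 RAS to ERK genes and 4 and 6 of 18 ERK output genes. NRG1 was the 1 of 5 ligand and receptor genes that passed (3.90, SE 0.48).

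Base composition of the promoters was set beside these differences. The share of G and C in the 250 bases was 65.2% for AREG, 58% for EREG, 75.6% for TGFA and 76.4% for HBEGF, against a median of 62.4% over coding promoters. It was 75.2% for ERRFI1, 70.4% for SPRY2, 65.6% for SPRY4 and ERBB2, and 57.2% for DUSP6. Across 10536 coding genes in sgControl, Spearman's rho between this share and footprints relative to mRNA was -0.111, a weak relation across genes that are not independent. The composition of the transcripts themselves was not analysed here.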

How the data were processed

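Per the labels, mRNA was selected with oligo(dT) beads, and footprints came from nuclease-digested lysates after depletion of ribosomal RNA. The deposited values are raw counts per gene in the form HTSeq writes, and the authors' tools, per the submitters' processing notes, were HTSeq 0.11.2, HISAT2 2.1.0, Trimmomatic 0.30, SAMtools 1.10 and edgeR, and the build was GRCh38. How strand and multiply mapped reads were handled, and which annotation was counted, is not given in the sources used here, so counts of overlapping genes are uncertain. Reads assigned to no gene, 22.24% to 54.35% in mRNA and 65.81% to 95.82% in footprints, stayed out of library sizes and tests.

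Genes were filtered with filterByExpr (minimum count 10), scaled by TMM and tested over all genes with the two-sided quasi-likelihood test of edgeR 4.0.16 (R 4.3.3), and a call needed a p under 0.05 after Benjamini-Hochberg adjustment. TMM ran within each assay for footprints relative to mRNA, and over both assays within 1 condition. Ratios of summed footprints carry 95% exact Clopper-Pearson intervals. Coding CPM differs from TMM scaling by 0.13 to 0.87 log2 units between conditions. Code was tested on simulated data. Alternatives were other scalings, filters, DESeq2 1.42.0, a replicate block, joint fits and leaving out each library. Same-numbered libraries correlated at 0.46, -0.316 and -0.526 between sgControl and sgDAMP mRNA and at -0.314 to 0.019 in the other 2 pairs of groups checked (Scramble mRNA with Scramble footprints and with sgControl mRNA), so no pairing was used. Summed footprint groups could not be checked. The 10 genes and the lists were chosen with earlier results of these data known. Named from each list were up to 4 called genes with the smallest p (in summed footprints, the largest fold) and, for each of the 10 genes, the 2 coding genes with the most alike mRNA pattern. Not all of the listed genes so chosen are printed.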

Additional observations from a re-analysis of the deposited data

Results flagged for a closer look

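Footprints relative to mRNA differed between the 2 control sets, sgControl and Scramble, by the interaction of assay and condition (edgeR quasi-likelihood, adjusted p under 0.05). The log2 differences were 4.53 for EREG, 4.0 for AREG, 1.38 for ERRFI1, -2.52 for SPRY2, -3.46 for ERBB3 and -4.57 for TGFA, where the median of all genes was 1.79. EREG lay above 81.7% and AREG above 78.3% of 13448 coding genes. ERRFI1 lost its call under upper-quartile scaling (0.22) and TMM over both assays (1.13), and without any 1 of 8 libraries. ERBB3 (-1.72) and SPRY2 (-0.76) lost theirs with total-count scaling. Experiment and condition cannot be told apart between these sets.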

How the results depend on the processing

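Of the counts of called genes, 125 of 133 were within 1.5 times the reported count, and 1174 of 1282 values of single genes counted as kept. With a test, these kept their direction and their side of the threshold. Ratios of summed footprints counted as kept inside their counting interval, or where they changed sign with neither setting past 1.5-fold. Sign changes of that kind are not printed below. In footprints of sgDAMP against sgControl the count of 2 became 4 with total-count scaling and 1 with at least 10 counts in every library (HBEGF, with DUSP6 not tested). Taking the libraries as 3 replicates understates the spread, since they agree within sampling noise. A call was then an adjusted p under 0.05 in place of 1.5-fold. The count was 1 of 6 genes tested (EREG, 0.43, SE 0.033), where 6957 of 12509 genes were called, and also 1 with a replicate block. In Scramble the count of 2 became 9 with total-count scaling (13530 of 14432 genes called), 1 of 1 gene tested with at least 10 counts in every library (1143 of 1630), and 2 to 4 leaving out 1 library. For sgControl against Scramble in footprints relative to mRNA the count of 6 became 1 of 1 gene with that filter (1247 of 1613 genes called). The replicate block left all other counts within 1.5 times. Against TMM, total-count scaling moved the median gene by 0.14 in mRNA and 0.23 in footprints of sgDAMP against sgControl, -0.60 and -0.42 for footprints against mRNA in sgControl and sgDAMP, and 1.73 between the control sets. Upper-quartile scaling moved it by -0.47, -0.40 and -1.15 in the last 3, and by 0.11 in Scramble. DESeq2 size factors moved it by 0.10, 0.17 and -0.11 (sgControl, sgDAMP, mRNA of the control sets). In mRNA of sgDAMP against sgControl, values that changed sign were EREG -0.012 (DESeq2 size factors), ERBB2 0.012, ERBB3 0.14 (total-count scaling), ERBB3 0.085 (upper-quartile scaling), ERBB3 0.022 (at least 10 counts in every library), EREG -0.011 (DESeq2 Wald test), ERBB3 0.021 (joint fit with all 9 mRNA libraries) and, leaving out 1 library, ERBB3 -0.16 to 0.091, EREG -0.31 to 0.57, TGFA -0.014 to 0.36, AREG -0.0062 to 0.51, SPRY2 -0.42 to 0.0063, ERBB2 -0.42 to 0.066. In footprints relative to mRNA, sgDAMP against sgControl, ranges that crossed 0 were, leaving out 1 library, ERBB2 -0.089 to 0.39, AREG -0.48 to 0.040, ERRFI1 -0.40 to 0.010, EREG -0.15 to 0.72. In Scramble footprints against mRNA, values that changed sign were SPRY2 -0.0071 (DESeq2 size factors), ERBB3 -0.29, AREG -2.61, EREG -2.48, HBEGF -1.76, SPRY2 -2.85 (total-count scaling), SPRY2 -0.11 (protein-coding genes alone), SPRY2 -0.15 (no count filter), EREG -0.65 (at least 10 counts in every library), SPRY2 -0.12 (DESeq2 Wald test), SPRY2 -0.25 (replicate block) and, leaving out 1 library, HBEGF -7.78 to 1.66, SPRY2 -2.70 to 0.59. In mRNA of Scramble against sgControl, values that changed sign were ERBB2 0.47, ERBB3 0.17, HBEGF 0.65, SPRY2 0.56, SPRY4 0.040 (total-count scaling) and, leaving out 1 library, HBEGF -0.43 to 0.020. In footprints relative to mRNA, sgControl against Scramble, values that changed sign were ERBB2 1.61, DUSP6 0.14, SPRY4 1.25 (total-count scaling) and, leaving out 1 library, HBEGF -2.55 to 5.35, SPRY2 -3.29 to 0.040, ERBB2 -0.45 to 0.12, SPRY4 -1.36 to 5.56. HBEGF and SPRY4 values beyond 5 in size rest on 0 Scramble footprints. Another 36 values gained a call and 20 lost one. The cause of these changes was not tested. Depth limits Scramble footprints most, where 7 of the 10 genes hold 35 counts or fewer in sum.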
